A study of Mus musculus with 4 samples.

Results

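Intestinal organoids grown with GDNF (glial cell line-derived neurotrophic factor) and its co-receptor GFRA1 were compared with untreated control organoids by 3′ RNA sequencing. The comparison takes in every organoid library of the series, 12 of 22 libraries in all, of which 6 were GDNF-treated and 6 were controls. The treated organoids received GDNF and GFRA1 together at 500 ng/mL each, so that effects of the growth factor and of the soluble co-receptor cannot be told apart. Both groups were wild type, came from proximal small-intestinal crypts of adult C57BL/6J mice and grew in Matrigel in ENR medium, which holds EGF (50 ng/mL), Noggin (100 ng/mL) and R-spondin 1 (250 ng/mL). The ROCK inhibitor Y-27632 (10 µM) was present at the start of all cultures, and RNA was taken on day 4. Each of the 3 experiments used crypts of 1 mouse and gave 2 GDNF-treated and 2 control libraries. Libraries of an experiment are therefore cultures of the same animal, and p-values that treat them as independent may be too small. The remaining 10 libraries came from crypt cells of Ret-EGFP mice sorted as Ret-EGFP+ or non-EGFP. They serve here only to describe how genes changed in organoids differed between these sorted cells.

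GDNF signals through the receptor tyrosine kinase RET, which it engages after binding a GFRA co-receptor at the cell surface. Activated RET recruits adaptor proteins that feed the RAS-ERK, PI3K-AKT and phospholipase C pathways. In the gut GDNF is best known for its part in building the enteric nervous system. The epithelium of small-intestinal organoids holds stem cells and Paneth cells in crypt-like buds, together with absorptive enterocytes, mucus-secreting goblet cells, tuft cells and hormone-producing enteroendocrine cells. After injury, and in the fetal gut, intestinal epithelium is known to express a set of genes that the adult crypt keeps low, among them Ly6a (Sca-1), Clu, Anxa1 and Il1rn.

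The organoid libraries held 1042028 to 2010359 counts each and 12160 to 13312 detected genes, and mitochondrial transcripts took 0.751 to 1.49% of the counts. Levels are given as CPM, a library's counts brought to a common scale, and tests used the counts themselves. The epithelial marker Epcam lay between 753 and 1571 CPM in GDNF-treated organoids and between 734 and 1410 CPM in control organoids. Markers of other tissues were at or near 0. The leukocyte genes Ptprc and Cd3e, the endothelial genes Cdh5 and Kdr and the glial and neuronal genes Sox10 and Gfap had 0 counts in all 12 libraries. Summed levels take in only the markers with enough counts to be tested. Of 14 mesenchymal markers 5 were tested, and these summed to 8.57 to 16.5 CPM with GDNF and 5.57 to 30.3 CPM in controls. The 2 tested of 16 leukocyte markers summed to 0.572 to 5.19 CPM with GDNF and 0.766 to 4.00 CPM in controls. The 3 tested of 12 glial and neuronal markers summed to 0 to 3.53 CPM with GDNF and 1.48 to 6.13 CPM in controls. Of 7 endothelial markers only Lyve1 was tested (95 GDNF and 118 control counts). It had 3.80 to 14.6 CPM with GDNF and 4.73 to 27.3 CPM in controls. No tested member of these lists was called changed.

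Experiments, each of 1 mouse, differed more than treatments. In a principal component analysis over 500 genes chosen by variance, component 1 (46.1% of the variance) parted experiment 3 from experiments 1 and 2. Component 4 (7.40%) parted the treatments, with GDNF libraries at -9.55 to -1.31 and control libraries at 4.31 to 9.39. The study's methods name female mice for experiments 1 and 2 and a male mouse for experiment 3, and the libraries of experiment 1 went against that. Xist, the non-coding RNA of the inactive X chromosome, had 280 and 400 counts in the GDNF libraries and 521 and 531 in the control libraries of experiment 2, and no more than 2 counts in any library of experiments 1 and 3. The Y-linked Ddx3y had 19 to 57 counts in the libraries of experiments 1 and 3 and 0 in experiment 2. Both treatments of each experiment had the same pattern, so the comparison of treatments within experiments does not rest on the stated sex.

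Control library 1 of experiment 1 also stood apart (19.6 on component 2, against 7.23 for the next library). It carried stomach transcripts that the other control library of the same mouse hardly held: Tff1, a gastric trefoil peptide, was at 734 CPM against 1.01 CPM, Gkn2 at 209 against 0 CPM and Gkn1 at 118 against 0 CPM, both gastrokines of surface mucous cells, and Tff2 at 49.1 against 2.01 CPM. Smaller amounts were seen in GDNF library 2 of experiment 3 (Tff1, 285 CPM; Tff2, 19.2 CPM) and in control library 2 of that experiment (Gkn1, 28.6 CPM; Gkn2, 20.2 CPM). None of them was called in the comparison of the treatments. Without control library 1 of experiment 1, 72 of the 82 genes called in the comparison were still called. Msln and Anxa10, whose fold changes moved most among the called genes, are given with and without it.

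**Figure D1:**
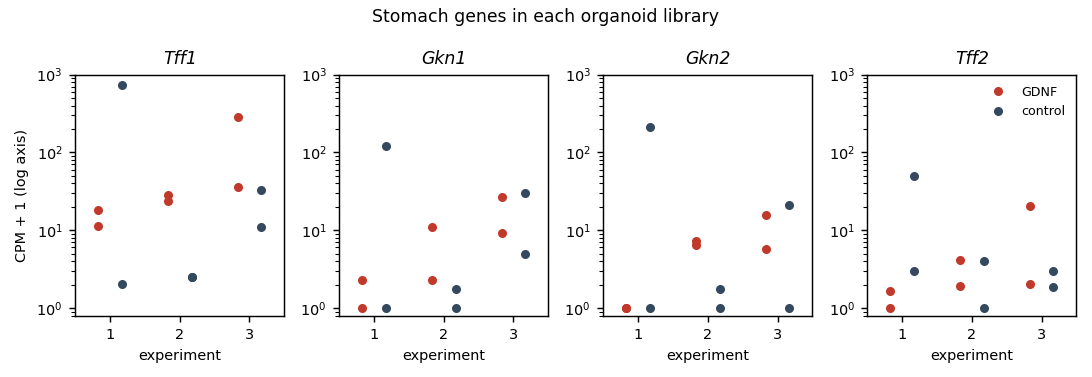
Levels of the stomach genes Tff1, Gkn1, Gkn2 and Tff2 (CPM + 1, log axis) in each organoid library by experiment, with GDNF-treated libraries left of control libraries and 1 point per library. A single control library of experiment 1 held the highest level of all 4 genes (Tff1, 734 CPM).

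GDNF treatment changed few transcripts, and most of those that changed rose. Of 12220 genes tested with edgeR's quasi-likelihood test with the experiment as a block, 82 (0.671%) had a Benjamini-Hochberg adjusted p under 0.1: 65 (0.532%) were higher and 17 (0.139%) lower in GDNF-treated organoids. At an unadjusted p under 0.05 there were 843 genes, and the median log2 fold change over all genes tested was 0.00. Among the 65 higher genes the median log2 fold change was 0.76 and 43 changed by less than 2-fold. Among the 17 lower genes it was -0.58 and 14 changed by less than 2-fold. Within each experiment, both GDNF libraries lay above both control libraries for 48 of the 65, against 1.14% of all genes tested, and below them for 10 of the 17, against 0.597% of all. The GDNF and control libraries did not overlap at all for 13 of the higher genes (0.205% of all genes tested) and 4 of the lower ones (0.0573%). The calls made use of these same values, so the counts describe the called genes and test nothing further. Single libraries bore on the number of calls: without GDNF library 1 of experiment 2 there were 41 higher and 8 lower genes, without control library 2 of that experiment 11 lower genes, and without control library 2 of experiment 1 there were 27 lower genes. Without the experiment as a block, 6 higher and 1 lower genes were called. On the lists of enteroendocrine markers stood 6 of the 65 higher genes and none of the lower ones, out of 60 genes of these lists that were tested.

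**Figure D2:**
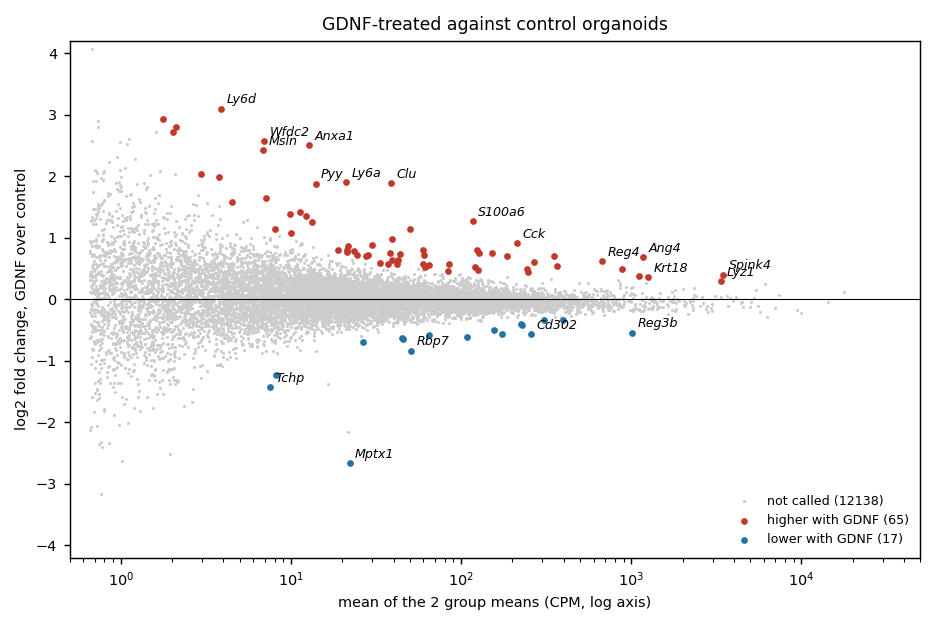
Log2 fold change (GDNF over control) against the mean level (CPM, log axis) for each of the 12220 genes tested, with the 65 genes called higher in red, the 17 called lower in blue and the others in grey. The called genes rose far more often than they fell, and Mptx1 was the called gene with the largest fall (log2 fold change -2.67).

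Transcripts of the receptors themselves were rare. Ret had 17 counts over the 6 GDNF libraries and 22 over the 6 control libraries, and 11 of the 17 came from a single library. Gfra1, the co-receptor of GDNF, had 1 count in each group, and Gfra2, Gfral, Gdnf and Pspn had 0 counts in both, which allows up to 0.304 CPM in GDNF-treated and 0.356 CPM in control organoids (3 counts of the group's total, counting error only). Gfra3, the co-receptor of artemin, had 42 counts with GDNF and 38 in controls. Nrtn, which encodes the related ligand neurturin, had 377 and 362 counts. None of the 3 genes of this list that could be tested (Ret, Gfra3 and Nrtn) was called. At such counts no change of the receptors was detectable. In whole organoids fewer cells of a type and less RNA per cell cannot be told apart.

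Of the 48 gene lists, that of fetal-like and injury-induced genes had the most called members. Of 32 tested members of this list 13 rose and none fell, 31 had a positive log2 fold change, and the median was 0.57 (0.55, 0.79 and 0.42 in experiments 1, 2 and 3), beside 0.00 over all genes tested. The 13 were S100a6, Anxa1, Ly6a, Clu, S100a11, Anxa3, Krt7, Msln, Anxa5, Il1rn, Krt23, Anxa10 and Plaur. Il1rn, the interleukin 1 receptor antagonist, was no longer called without GDNF library 1 of experiment 2 (log2 fold change 1.44, adjusted p = 0.169 in edgeR). The abundant members Anxa2 and Krt19 were not called, with log2 fold changes of 0.19 ± 0.09 and 0.14 ± 0.08 (SE, n = 6 each). The list was compiled with earlier results of these data known, so its rank among the lists tests nothing. Over all genes tested 0.532% were called higher, which is the background for the counts of this list and those below.

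S100a6 encodes calcyclin, a small calcium-binding protein of the S100 family. It ranged from 121 to 208 CPM in GDNF-treated organoids (median 177) and from 46.0 to 88.8 CPM in control organoids (median 70.2), so that every GDNF library lay above every control library. The log2 fold change was 1.27 ± 0.12 (SE, n = 6 each, adjusted p = 1.34e-10 in edgeR), with 1.16, 1.73 and 0.93 in the 3 experiments. S100a11, a partner of annexins at membranes, behaved alike. Its levels were 143 to 189 CPM with GDNF (median 157) and 85.1 to 104 CPM in controls (median 96.3), again without overlap, with a log2 fold change of 0.75 ± 0.10 (adjusted p = 1.10e-06). Of 9 tested S100 genes a further one, S100a14, was called (log2 fold change 0.80, adjusted p = 0.0473), and it lost the call on leaving out any of 7 libraries, with the highest adjusted p (0.335) without GDNF library 1 of experiment 2.

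Annexins bind phospholipid membranes in the presence of calcium. Of 11 tested members 4 rose and none fell (median log2 fold change 0.30). Anxa1, whose product also acts as a resolving signal in inflammation, ranged from 10.4 to 32.9 CPM with GDNF (median 23.9) and from 0.666 to 8.43 CPM in controls (median 3.58). No control library reached the lowest GDNF library, and the log2 fold change was 2.50 ± 0.28 (SE, n = 6 each, adjusted p = 3.99e-08 in edgeR), at 2.53, 2.42 and 2.60 in the 3 experiments. Anxa3 had 37.2 to 103 CPM with GDNF and 13.7 to 50.6 CPM in controls (log2 fold change 1.14 ± 0.16, adjusted p = 3.50e-06). Its groups overlapped across mice but not within any experiment. Anxa5, the annexin used to detect exposed phosphatidylserine, had 37.7 to 71.1 CPM with GDNF and 29.7 to 35.96 CPM in controls (log2 fold change 0.74 ± 0.14, adjusted p = 0.00176). Anxa10, at 1.25 ± 0.32 (adjusted p = 0.0464), turned on single libraries: in control library 1 of experiment 1, the library with stomach transcripts, it was at 21.7 CPM, and without that library the log2 fold change was 1.90 (adjusted p = 1.80e-06), while it lost the call on leaving out any of 8 other libraries, with the highest adjusted p (0.243) without GDNF library 2 of experiment 3.

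Ly6a, a surface protein anchored by glycosylphosphatidylinositol and known as a mark of the fetal-like state, ranged from 15.4 to 62.6 CPM in GDNF-treated organoids (median 30.4) and from 2.84 to 15.3 CPM in control organoids (median 7.84). All GDNF libraries were above all controls, though the lowest GDNF library exceeded the highest control library only narrowly, across experiments. The log2 fold change was 1.90 ± 0.23 (SE, n = 6 each, adjusted p = 1.36e-07 in edgeR). Clu, the secreted chaperone clusterin that marks a rare stem-like cell of the injured gut, ranged from 11.4 to 86.7 CPM with GDNF (median 65.9) and from 1.69 to 47.3 CPM in controls (median 13.6). Its groups overlapped only between mice, and experiment 3 was low in both groups. Its log2 fold change of 1.89 ± 0.23 (adjusted p = 2.48e-07) was 1.13, 2.50 and 3.03 in the 3 experiments. Msln (mesothelin) had 2.60 to 17.1 CPM with GDNF (median 12.4) and 0 to 10.4 CPM in controls (median 1.01). The highest control value was that of control library 1 of experiment 1, and the log2 fold change of 2.42 ± 0.46 (adjusted p = 0.00155) was 3.47 without it (adjusted p = 1.92e-06). The keratin Krt7, a filament protein of simple and ductal epithelia, rose by 0.60 ± 0.09 on the log2 scale (adjusted p = 2.88e-05). It had 245 to 379 CPM with GDNF and 180 to 280 CPM in controls. Of 6 tested keratins 3 rose and none fell. Besides Krt7 these were Krt18 (0.35 ± 0.08, adjusted p = 0.0150) and Krt23 (0.55 ± 0.13, adjusted p = 0.0160), and both lost the call without GDNF library 1 of experiment 2 (adjusted p = 0.110 and 0.125), Krt23 also without control library 1 of that experiment (0.103).

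**Figure D3:**
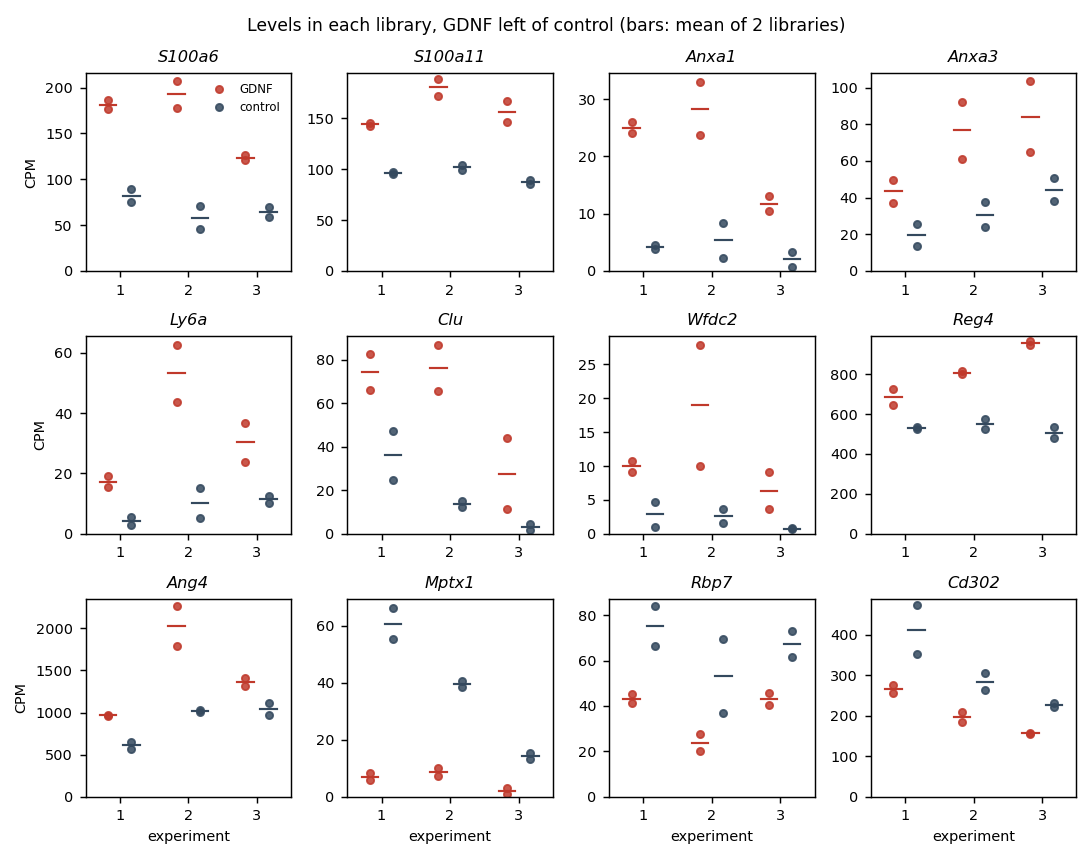
Levels (CPM, axes from 0) of 12 called genes in each library by experiment, with GDNF-treated libraries (red) left of control libraries (dark) and bars at the mean of the 2 libraries. S100a6, S100a11, Anxa1, Ly6a and Reg4 were higher in all 6 GDNF libraries than in any control library, and Mptx1 was lower in all 6 (1.01 to 10.1 CPM, against 13.3 to 66.2 CPM in controls).

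AP-1, the transcription factor family of Fos and Jun, is a known endpoint of ERK signalling. The stretch from 250 bases before to 50 after the start of each gene in RefSeq (GRCm38.p6) was searched on both strands for 4 motifs, whose ends can share letters: the AP-1 letters TGANTCA, which read the same on both strands, GGAATG of the TEAD factors, the DNA-binding partners of YAP, and the E-boxes CAGCTG and CAGATG. Over all genes tested, 4.93%, 12.0%, 14.5% and 11.1% of 9533 promoters held them, in this order. A match is a description of letters and not of binding, and a link of any match to ERK signalling was not tested. Of the 65 higher genes only 45 (69.2%) had a promoter sequence in the table used, under the 80% needed, so a share over the higher genes is void and none is given for any motif. Among the higher genes whose GDNF libraries lay above the controls within all 3 mice and that held the call whichever library was left out, S100a11, Mmp7, Ang4 and Ifitm3 held the AP-1 letters, shown in capitals to give their place before these genes.
S100a11, chr3:93520350-93520376, plus strand: agagacctgtTGAGTCAcagggactac
S100a11, chr3:93520448-93520474, plus strand: gggcacagccTGAGTCAggctgagggg
Mmp7, chr9:7692017-7692043, plus strand: agtgtgcaaaTGAGTCAcctatttcca
Ang4, chr14:51773696-51773722, minus strand: gaaaggtgagTGACTCAttctttgtcc
Ifitm3, chr7:141010833-141010859, minus strand: gaagttccccTGATTCAcaatccttcc

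In S100a11 the matches began at positions -136 and -38 from the start, in Mmp7 at -63, in Ang4 at -122 and in Ifitm3 at -105. Among the same higher genes the TEAD letters stood before Anxa1, Edn1 and Pls3, CAGCTG before Ifitm3 and Samd5, and CAGATG in Anxa1, Cck, Ang4, Igfbp4 and Pls3. Of the TEAD matches that of Anxa1 is shown because the gene's fold change was of like size in the 3 mice. Its match, in capitals, is read on the opposite strand and began at position -236.
Anxa1, chr19:20390892-20390917, minus strand: tgcactgaacCATTCCtgtgaggaat

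Secretory genes of the crypt formed the next group. Of 14 tested genes on the Paneth cell list 3 rose and none fell (median log2 fold change 0.27). Of 18 goblet cell genes 5 rose and none fell (median 0.33), beside 0.00 over all genes tested. The defensins Defa3, called higher, and Defa34, called lower, were not on the Paneth cell list and are given below with Mptx1. Ang4, an angiogenin-family ribonuclease with antimicrobial activity secreted by Paneth cells, had 963 to 2268 CPM in GDNF-treated organoids (median 1364) and 571 to 1119 CPM in control organoids (median 985). The groups overlapped between mice but were apart within each. The log2 fold change was 0.68 ± 0.09 (SE, n = 6 each, adjusted p = 1.10e-06 in edgeR). Mmp7, matrilysin, which activates pro-defensins in mouse Paneth cells, had 315 to 607 CPM with GDNF and 216 to 399 CPM in controls (0.53 ± 0.09, adjusted p = 7.31e-05). Lyz1 (Paneth lysozyme) rose by only 0.30 ± 0.08 (adjusted p = 0.0709), and that call was lost on leaving out any of 10 libraries (highest adjusted p 0.335, without GDNF library 1 of experiment 2). The abundant Paneth genes Defa24 and Itln1 were not called, at 0.12 ± 0.08 and 0.25 ± 0.08.

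Reg4, a secreted C-type lectin found in secretory cells of the gut, did not overlap between the groups. It had 644 to 967 CPM with GDNF (median 808) and 480 to 577 CPM in controls (median 530), and a log2 fold change of 0.61 ± 0.09 (SE, n = 6 each, adjusted p = 5.22e-06 in edgeR), with 0.37, 0.55 and 0.91 in the 3 experiments. Spink4, a protease inhibitor of goblet cells, had 3261 to 4436 CPM with GDNF and 2244 to 3554 CPM in controls (0.40 ± 0.08, adjusted p = 0.00635), and Agr2, a disulfide isomerase needed for mucin folding, had 1074 to 1596 CPM with GDNF and 782 to 1279 CPM in controls (0.37 ± 0.08, adjusted p = 0.00643). For both genes the GDNF libraries were above the controls within each mouse, and the groups overlapped between mice. The gel-forming mucin Muc2 (0.57 ± 0.13, adjusted p = 0.0159), the lectin Zg16 (0.49 ± 0.11, adjusted p = 0.0114) and the secreted Clca1 (0.75 ± 0.17, adjusted p = 0.0140) were called as well, but each lost the call without GDNF library 1 of experiment 2 (adjusted p = 0.177, 0.106 and 0.104). Tff3 and Guca2a were not called, at 0.17 ± 0.08 and 0.32 ± 0.09.

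Of 16 tested stem cell genes 3 rose and none fell (median log2 fold change 0.12), and no difference of these between mice was called. Smoc2, a matricellular protein enriched in crypt-base stem cells, had 94.5 to 171 CPM in GDNF-treated organoids and 65.7 to 142 CPM in control organoids (0.47 ± 0.10, SE, n = 6 each, adjusted p = 0.00928 in edgeR). Olfm4 (0.49 ± 0.11, adjusted p = 0.0129) was at 0.42, 0.07 and 1.06 in experiments 1, 2 and 3 and lost the call without control library 1 or 2 of experiment 3 (adjusted p = 0.133 and 0.126). Lgr5, the receptor for R-spondins, rose by 0.52 ± 0.13 (adjusted p = 0.0348), a call lost without control library 2 of experiment 3 (0.133), GDNF library 1 of experiment 1 (0.123) or GDNF library 2 of experiment 3 (0.106). Igfbp4, a secreted binding protein of insulin-like growth factors that was on no list, had 38.9 to 65.8 CPM with GDNF and 18.0 to 39.1 CPM in controls (0.98 ± 0.15, adjusted p = 4.96e-05). None of the 20 proliferation genes was called (median 0.01), and Top2a stood at -0.04 ± 0.10.

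**Figure D4:**
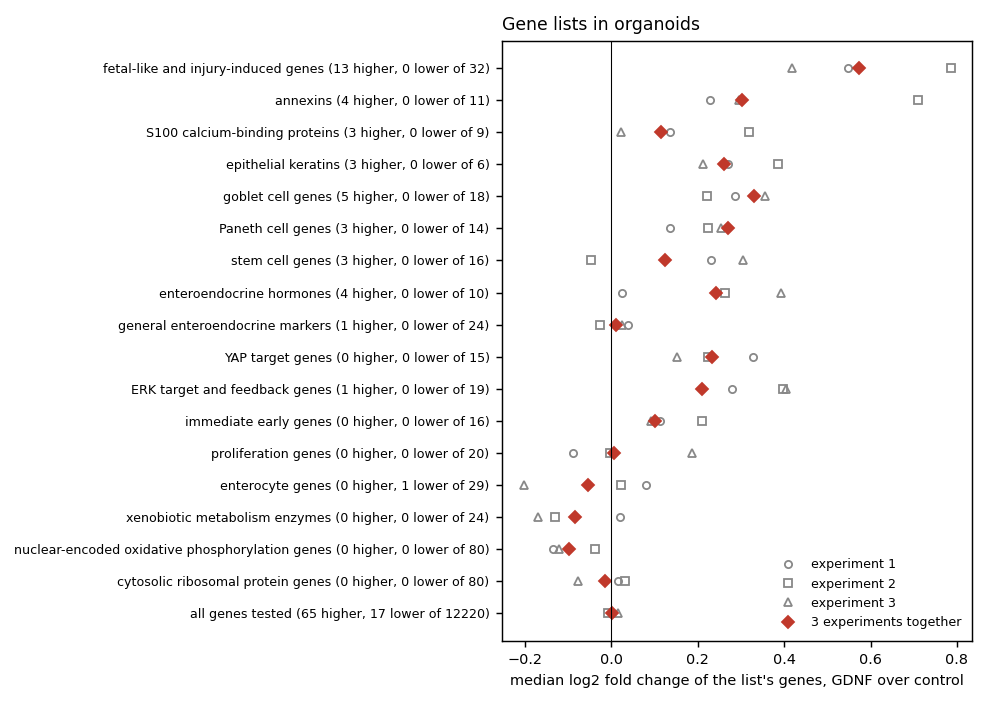
Median log2 fold change (GDNF over control) of 17 gene lists and of all genes tested, over the 3 experiments together (red diamonds) and within each (grey marks), with the number of members called higher and lower of those tested. The fetal-like and injury-induced list had the highest median (0.57), and all genes tested had a median of 0.00.

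Of the 59 called genes that rose outside the enteroendocrine lists, 26 stood on no list. Wfdc2, a secreted whey acidic protein of mucosal surfaces, ranged from 3.63 to 27.8 CPM in GDNF-treated organoids (median 9.60) and from 0.666 to 4.73 CPM in control organoids (median 1.27), with a log2 fold change of 2.57 ± 0.40 (SE, n = 6 each, adjusted p = 4.88e-05 in edgeR). Ly6d, a relative of Ly6a, was at 0 in 1 GDNF library and reached 12.1 CPM in another (median 7.62), whereas control libraries held 0 to 1.69 CPM (3.09 ± 0.57, adjusted p = 0.00117). Ifitm3, an interferon-induced membrane protein that hinders virus entry, had 146 to 273 CPM with GDNF and 66.6 to 202 CPM in controls (0.70 ± 0.10, adjusted p = 1.71e-05). None of the 22 genes of the separate list of interferon response and MHC genes was called (median 0.00). Gkn3, a gastrokine, had 110 to 227 CPM with GDNF and 46.6 to 138 CPM in controls (0.79 ± 0.12, adjusted p = 3.39e-05). Its log2 fold change was uneven, at 0.85, 0.22 and 1.34 in experiments 1, 2 and 3. Unlike Gkn1 and Gkn2, Gkn3 was present in every library.

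Further genes of this kind had roles in signalling, junctions and the cytoskeleton. Edn1, the peptide endothelin 1, had 7.06 to 34.3 CPM with GDNF and 3.37 to 15.2 CPM in controls (log2 fold change 1.36 ± 0.26, SE, n = 6 each, adjusted p = 0.00164 in edgeR). The actin-bundling Pls3 had 7.43 to 20.9 CPM with GDNF and 2.66 to 9.64 CPM in controls (1.38 ± 0.27, adjusted p = 0.00280), and Samd5 had 8.31 to 24.7 CPM with GDNF and 3.83 to 12.6 CPM in controls (1.41 ± 0.27, adjusted p = 0.00162). In all 3 both GDNF libraries were above both controls of the same mouse. Cfi, complement factor I, rose by 0.88 ± 0.17 (adjusted p = 0.00176), and the uncharacterised 2210407C18Rik by 0.70 ± 0.11 (adjusted p = 3.39e-05). Cfi lost its call without experiment 1 (0.65, adjusted p = 0.397). Cldn4, a tight junction claudin, had 36.01 to 146 CPM with GDNF and 20.8 to 67.3 CPM in controls (0.72 ± 0.15, adjusted p = 0.00682), and it was the only called gene among 23 tested claudins and junction genes. Gkn3, Ly6d, Muc2 and the defensins were singled out after their values were seen.

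Mptx1 had the smallest p of all genes tested. It encodes a mucosal pentraxin, a secreted protein of the family of C-reactive protein, on chromosome 1 (174330518-174332873, plus strand, GRCm38). Mptx1 ranged from 1.01 to 10.1 CPM in GDNF-treated organoids (median 6.51) and from 13.3 to 66.2 CPM in control organoids (median 39.6), with no overlap. It fell by 2.67 ± 0.22 on the log2 scale (SE, n = 6 each, adjusted p = 4.79e-12 in edgeR), with -3.10, -2.14 and -2.74 in experiments 1, 2 and 3. The counts were 55 over the GDNF libraries and 322 over the controls. Its paralog Mptx2, with 6763 and 5830 counts, was not called (log2 fold change 0.05 ± 0.10). How reads that match more than 1 gene copy were counted is not given in the sources used here, so values of such paralogs are uncertain. This bears also on the defensins Defa3 and Defa34. Defa3 was called higher (0.76 ± 0.13, adjusted p = 4.49e-04 in edgeR), though its groups overlapped within experiment 3. That call was lost without experiment 2 (0.52, adjusted p = 0.324 in edgeR) and with DESeq2 (adjusted p = 0.158). Defa34 was called lower (-0.58 ± 0.14, adjusted p = 0.0365 in edgeR), a call lost on leaving out any of 4 libraries. The highest value was 0.405 without control library 2 of experiment 2, and it was 0.151 without control library 1 of experiment 1.

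The other 16 lower genes included enzymes, a receptor and a nutrient transporter. Cd302, a C-type lectin receptor, had 156 to 276 CPM in GDNF-treated organoids and 221 to 473 CPM in control organoids (-0.57 ± 0.09, SE, n = 6 each, adjusted p = 6.63e-05 in edgeR). Rbp7, a cellular retinol-binding protein, had 20.3 to 45.9 CPM with GDNF and 36.8 to 84.1 CPM in controls (-0.84 ± 0.14, adjusted p = 2.26e-04). Within each mouse both GDNF libraries were the lower ones for both genes. Akr1c14, an aldo-keto reductase, was lower without any overlap, at 28.6 to 41.2 CPM with GDNF and 44.5 to 67.4 CPM in controls (-0.63 ± 0.14, adjusted p = 0.0115). Slc6a19, the neutral amino acid transporter of the brush border, fell by 0.56 ± 0.11 on the log2 scale (adjusted p = 0.00492), and Prlr, the prolactin receptor, by 0.50 ± 0.10 (adjusted p = 0.00437). The mitochondrial arginase Arg2 had 121 to 285 CPM with GDNF and 159 to 369 CPM in controls (-0.42 ± 0.09, adjusted p = 0.0116). Otc, ornithine transcarbamylase, was lower in all 6 GDNF libraries (308 to 393 CPM, against 408 to 501 CPM in controls). Its call (-0.34 ± 0.08, adjusted p = 0.0362) was lost on leaving out GDNF library 2 of experiment 1 (0.146), control library 2 of experiment 2 (0.118) or GDNF library 1 of experiment 2 (0.169). Arg2 and Otc were the only called members among 14 urea cycle and ornithine genes.

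Lists of enterocyte function held few called genes. Of 29 tested enterocyte genes 1 was called, Reg3b, an antibacterial lectin (-0.55 ± 0.12, adjusted p = 0.0159 in edgeR), which lost the call without control library 2 (0.411) or GDNF library 1 (0.173) of experiment 2. The abundant Fabp1 and Fabp2 were not called, with log2 fold changes of -0.05 ± 0.08 and -0.14 ± 0.09 (SE, n = 6 each). No member was called among 24 xenobiotic metabolism enzymes (median -0.08), 80 nuclear-encoded oxidative phosphorylation genes (median -0.10) or 80 cytosolic ribosomal protein genes (median -0.01). In this order 4, 12 and 32 members had a positive log2 fold change, beside 50.55% of all genes tested. These shares were not tested. Xist was called lower (-0.61 ± 0.17, adjusted p = 0.0997), but its counts came from experiment 2 alone, and the call was lost on leaving out any of 7 libraries, with the highest adjusted p (0.548) without GDNF library 1 of experiment 2.

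Of 19 tested ERK target and feedback genes, a pathway known to act downstream of RET, 1 rose (0.532% of all genes tested were called higher). This was Plaur, the urokinase receptor (1.08 ± 0.29, adjusted p = 0.0723 in edgeR), and that call was lost on leaving out any of 7 libraries (highest adjusted p 0.243, without GDNF library 2 of experiment 3). The median of the list was 0.21, and Phlda1, an abundant member, stood at 0.42 ± 0.12 (SE, n = 6 each, adjusted p = 0.126). None of 16 immediate early genes (median 0.10), 16 RET adaptor and docking proteins (median 0.03), 15 YAP target genes (median 0.23), 15 Notch pathway genes (median 0.17) or 10 EGF receptor ligands and receptors (median 0.10) was called. In this order 9, 8, 13, 11 and 8 members had a positive log2 fold change, beside 50.55% of all genes tested. Of 23 Wnt ligands, receptors and targets only Lgr5 was called (median 0.21), a call lost on leaving out any of 3 libraries (highest adjusted p 0.133, without control library 2 of experiment 3). Among 23 chemokines, cytokines and receptors 2 were called, Il1rn and Cxcl16 (0.79 ± 0.22, adjusted p = 0.0910). Without GDNF library 1 of experiment 2 neither was called (adjusted p = 0.169 and 0.660), and Cxcl16 lost the call on leaving out any of 7 other libraries too.

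Of the 60 tested genes on the enteroendocrine lists 6 rose: Pyy, Cck, Tac1, Tph1, Nts and Marcksl1. Pyy, peptide YY of L cells, had 13.9 to 30.3 CPM with GDNF (median 21.8) and 2.84 to 10.95 CPM in controls (median 5.22), with no overlap (log2 fold change 1.88 ± 0.24, SE, n = 6 each, adjusted p = 1.10e-06 in edgeR). Cck, cholecystokinin of I cells, had 194 to 380 CPM with GDNF and 94.2 to 212 CPM in controls (0.91 ± 0.10, adjusted p = 3.99e-08), and Tac1, the precursor of substance P, 55.0 to 99.1 CPM with GDNF and 23.6 to 57.2 CPM in controls (0.79 ± 0.15, adjusted p = 0.00117). Tac1 stood at 0.62, 0.27 and 1.55 in experiments 1, 2 and 3 and lost its call without experiment 3 (0.46, adjusted p = 0.416). Tph1, the rate-limiting enzyme of serotonin synthesis in enterochromaffin cells, was higher in all 6 GDNF libraries (21.9 to 37.7 CPM, against 5.94 to 20.8 CPM in controls). Its call (0.87 ± 0.20, adjusted p = 0.0150) narrowly failed without GDNF library 1 of experiment 2 (0.78, adjusted p = 0.105). Without the whole of experiment 2 it was lost more clearly (0.71, adjusted p = 0.383). The neurotensin gene Nts (0.63 ± 0.15, adjusted p = 0.0362) lost its call on leaving out any of 4 libraries. The highest adjusted p (0.334) again came without GDNF library 1 of experiment 2. Of 24 general enteroendocrine markers 1 was called (median of the list 0.01), Marcksl1, whose call was lost on leaving out any of 5 libraries (highest adjusted p 0.185, without control library 2 of experiment 3, and 0.139 without control library 1 of experiment 1), and of 19 transcription factors of the lineage none was (median -0.18). Chga, chromogranin A, stood at -0.34 ± 0.12 (adjusted p = 0.397), and the hormone genes Gcg and Ghrl at -0.22 ± 0.12 and 0.21 ± 0.12.

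The 3 mice gave the same direction for nearly all called genes. Of the 65 higher genes 64 had a positive log2 fold change in each experiment, and of the 17 lower genes 16 had a negative one. These are values of the libraries that made the calls. With any 1 of the 3 experiments left out in turn, 17 of the 65 and 3 of the 17 were called every time. Some genes that kept the call whichever library was left out lost it without a whole experiment. For Smoc2, Anxa5, Agr2 and Arg2 this held for 2 experiments. For Cfi, Msln, Edn1, Pls3, Samd5, Cldn4, Spink4, Tac1, Ly6d, Defa3, Slc6a19, Prlr and Akr1c14 it held for 1. Tested within single experiments, 12 (0.0982%), 24 (0.196%) and 17 (0.139%) genes were called in experiments 1, 2 and 3. The difference of the GDNF effect between experiments was called for 6 genes (0.0491%), and none of the 82 genes was among them. Of the 6, Tff1 (adjusted p = 3.98e-05 in edgeR), Gkn2, Tff2 and Gkn1 were the stomach genes of control library 1 of experiment 1 and were no longer called without it. The mouse, its sex and the day of the experiment cannot be told apart in this design.

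**Figure D5:**
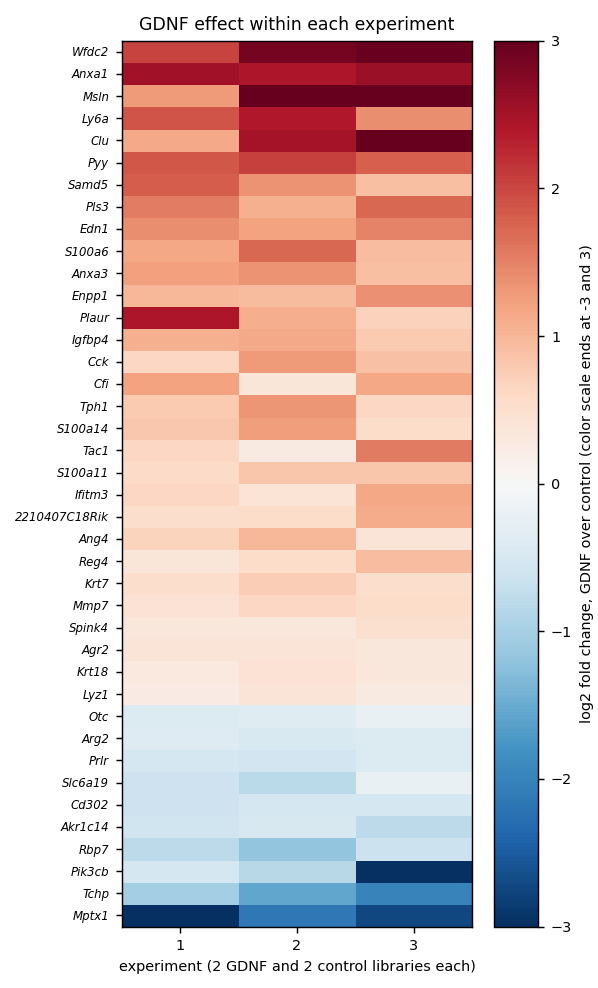
Log2 fold change (GDNF over control) within experiments 1, 2 and 3, each of 2 GDNF and 2 control libraries, for 40 called genes that lay on 1 side in all 3 mice or mark enteroendocrine cells (color scale ends at -3 and 3). Every gene shown kept its sign over the mice, which the choice of genes fixed in advance for all but the enteroendocrine markers. Anxa1 stood at 2.53, 2.42 and 2.60.

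The sorted cells show which of these genes were higher or lower in Ret-EGFP+ than in non-EGFP crypt cells. They share no library with the organoids. The 5 Ret-EGFP+ and 5 non-EGFP libraries came from 3 mice, and which library came from which mouse is not given in the sources used here, so the test treats them as independent and its p-values may be too small. In it, 2939 (21.5%) of 13672 genes were called higher and 2918 (21.3%) lower in Ret-EGFP+ cells, with non-EGFP cells as the comparison. All 6 enteroendocrine genes that rose with GDNF were higher in Ret-EGFP+ cells, Cck by 5.99 on the log2 scale. Of the other 59 genes that rose, 11 were higher, 26 lower and 16 not called in Ret-EGFP+ cells, and 6 could not be tested. The 11 included Anxa5 (3.10 on the log2 scale), Wfdc2 (2.73), Krt7 (1.87), Igfbp4 (1.74), Cfi (1.71), Ly6a (1.58) and Reg4 (1.34). Among the 26 were Anxa3 (-7.35), Ang4 (-6.51) and Mmp7 (-4.65). Over the 11660 genes tested in both data sets 17.4% were higher and 23% lower. S100a6 was not called in the sorted cells (-0.14, adjusted p = 0.724 in edgeR), and Anxa1 and Msln could not be tested there. Of the 17 genes that fell with GDNF, 1 was higher in Ret-EGFP+ cells (Slc6a19), 11 were lower and 5 were not called. With scaling to library totals alone, 14 of the 59 were higher and 22 lower.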

How the data were processed

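RNA of organoids and sorted cells was primed with an oligo-dT carrying a barcode and a molecular identifier, so that reads lie at transcript 3′ ends. Per the submitters' processing notes and the study's methods, the authors used STAR (version 2.7.8a) with the GRCm38 genome for alignment and BRB-seqTools for counting. The deposited values are raw whole-number counts for 31053 genes, of which 30934 matched a symbol in the GENCODE M21 annotation, and the annotation used for counting is not given in the sources used here. A reporter entry (0 to 3 counts per library) was left out. Treatment and experiment came from the deposited sample sheet, joined by sequencing pool and barcode. Repeat libraries differed by more than counting error (chi-square per degree of freedom 1.87 to 4.88), so all were kept.

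The tests came from edgeR 4.0.16 under R 4.3.3 (quasi-likelihood fit, TMM, experiment as block, adjusted p under 0.1), after the study's model. A gene entered when its counts summed to 5 or more and its normalized counts averaged 1 or more. DESeq2 1.42.0 and the alternatives of the closing section were run beside it. The script was tested on simulated data. CPM are counts over library totals scaled by TMM factors. The floors use the unscaled totals. Named genes are the markers and receptors, the called non-enteroendocrine genes on 1 side in all 3 experiments with at least 10 counts per library (15 largest folds, 10 smallest p and 10 largest CPM differences each way), up to 4 called and 3 uncalled members per list, and the 10 smallest p between experiments. Members and gene lists were chosen with earlier results of these data known. The SE of a log2 fold change includes the estimated spread between libraries, and the floors cover counting error only.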

Additional observations from a re-analysis of the deposited data

Results flagged for a closer look

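In 5 of 116 groups of 6 libraries that were examined, 1 library lay far from the others, its gap to the nearest being a larger share of the group's range than Dixon's 95% limit; chance alone gives this in about 1 of 20 groups. Wfdc2 was at 27.8 CPM in GDNF library 1 of experiment 2, with the next GDNF library at 10.8 CPM. Msln was at 10.4 CPM and Tchp at 19.8 CPM in control library 1 of experiment 1, with the next controls at 2.30 and 11.5 CPM. Without that library Tchp was no longer called (log2 fold change -1.26, adjusted p = 0.138 in edgeR). Samd5 was at 12.6 CPM in control library 2 of experiment 2 (next 6.08 CPM), and Edn1 at 15.2 CPM in control library 2 of experiment 1 (next 5.94 CPM).

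For 6 genes the GDNF effect differed between the experiments in edgeR's test of the interaction: Tff1 (adjusted p = 3.98e-05), Gkn2 (0.0156), Tff2 (0.0204), Gkn1 (0.0448), the long non-coding RNA AY036118 (0.0776) and Sprr2a3 (0.0947). The first 4 lost this call without control library 1 of experiment 1, where they were highest.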

How the results depend on the processing

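No called gene changed direction under any alternative in which it was tested, and S100a6, Pyy, Anxa1, Mptx1, Reg4, S100a11 and Ly6a were called under all 24 changes of model, scaling, filter, block or libraries. The 65 higher and 17 lower calls became 46 and 15 with DESeq2 (58 of 82 kept), 44 lower ones with an unadjusted p under 0.05 and a 2-fold change, 6 and 1 without the experiment block, 31 and 4 without experiment 2, and 34 higher ones without experiment 3. With 1 library left out they ranged from 41 to 69 and from 8 to 27. In pool 4 alone, an alternative chosen after seeing the data, 72 were lower. Genes described above that DESeq2 did not call were Anxa10 (adjusted p = 0.926 in DESeq2), Reg3b (0.843), Olfm4 (0.428), Xist (0.367) and Cxcl16 (0.347). The same held for Plaur (0.169), S100a14 (0.166), Defa3 (0.158), Defa34 (0.108) and Nts (0.104). The 6 differences between experiments became 3 with library totals alone, 1 with filterByExpr and 1 to 22 with 1 library left out. The median of the RET adaptor list was 0.0484 with totals and 0.0288 in the main analysis, and sorted-cell calls with totals alone were 4789 higher and 1821 lower. The log2 fold change of Gfra3, GDNF over control (-0.00, not called), turned positive with DESeq2 (0.0554), totals (0.0197), pool as a term (0.0719), without experiment 1 (0.451) or 2 (0.0434), and ranged from -0.194 to 0.256 with 1 library left out; Defa24 (not called) was -0.0464 in pool 4 alone. The causes were not tested. No paired analysis was possible because library numbers only name cultures within an experiment, and the experiment is already the block. The fit on sums per experiment and treatment gave 84 higher and 25 lower genes.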
